A study of Mus musculus with 2 samples.

Results

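CG methylation was described at Clec11a, which encodes osteolectin, and at Itga11 and Itgb1, which encode the α and β chains of its receptor. They are 3 of 21938 protein-coding genes and were chosen by name as a ligand and its receptor. Earlier results of these data, which the choice followed, already named Clec11a, so its difference is no independent evidence. For each gene the GENCODE M21 model and 25 kb on either side were taken. CpGs within 2 kb of the transcription start site (TSS) were read singly and the rest in 200 bp bins, which gave 322 single CpGs and 237 testable bins outside the TSS windows.

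Osteolectin is a secreted C-type lectin domain protein made by osteogenic cells, and it promotes the differentiation of mesenchymal progenitors into osteoblasts. It binds an integrin whose α chain is the collagen-binding Itga11 product and whose β chain is the Itgb1 product, and binding of this receptor activates β-catenin signalling. The β chain is shared with many other integrins in nearly all cell types, whereas the α chain is typical of mesenchymal cells. TET enzymes oxidise 5-methylcytosine, a step toward its removal.

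Whole-genome bisulfite sequencing (WGBS) was carried out on primary calvarial osteoblasts of C57BL/6 mice aged 3 days. One group was wild type (WT). The other (TCKO) carried floxed alleles of Tet1, Tet2 and Tet3 together with Prx1-Cre, a driver active in limb and some cranial mesenchyme and not in every cell of the calvaria. Each genotype had 1 library, so every test sets 1 library against the other rather than genotype against genotype, and all intervals cover counting error only. Bisulfite conversion does not separate 5-methylcytosine from 5-hydroxymethylcytosine.

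The WT library held 261127589 calls and the TCKO library 223645082, a median of 4 per CG cytosine with a call in each. Over all nuclear chromosomes 70.2% of WT calls and 76.3% of TCKO calls were methylated, a difference of 6.06 points. As a check of the labels, the exon with the lowest ratio of TCKO to WT calls was taken in each deleted gene, among exons with at least 50 WT calls. It had 62 WT calls and 1 TCKO call in Tet1, a ratio as low as that of the lowest exon in 2.4% of the 2957 genes with at least 10 such exons. In Tet2 (180 and 50 calls) the ratio was no rarity, as 21.1% of those genes had an exon as low. For Tet3 (85 and 26) the share was 25.6%, but Tet3 had only 6 such exons. A lowest ratio over fewer exons tends to be higher, so the Tet3 share is not a like comparison. The TSS windows of 6 osteoblast markers lay between 3.38% and 76.8% in WT, and those of 6 markers of other cell types between 29.3% and 77.6%. In TCKO 4 and 3 of them were called higher, against 37.8% of all windows. Methylation levels give no measure of the share of such cells.

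Clec11a (ENSMUSG00000004473) occupies chr7:44302687-44306902 of GRCm38 on the minus strand, with 4 exons over 4.22 kb. The TSS of Shank1, on the other strand, lies at -3351 bp. Negative distances are upstream of the TSS throughout. Itga11 (ENSMUSG00000032243) has 30 exons over 106 kb at chr9:62677826-62783982, and Itgb1 (ENSMUSG00000025809) has 16 exons over 47.5 kb at chr8:128685654-128733200, both on the plus strand.

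The sequences below are shown because they hold a called bin of each gene that the results turn on, beside a CpG-rich stretch of Clec11a intron 3 that was unmethylated in both libraries and the CpG-rich sequence upstream of Itgb1, which had few calls. Capitals mark CpGs. The first and the fifth are the 250 bases upstream of the RefSeq TSS (GRCm38.p6), which for Clec11a lies at -57 bp and for Itgb1 at the GENCODE TSS. The others are 200 bp bins of the GRCm38 reference, on the gene's strand.
Clec11a upstream, chr7:44306960-44307209, minus strand: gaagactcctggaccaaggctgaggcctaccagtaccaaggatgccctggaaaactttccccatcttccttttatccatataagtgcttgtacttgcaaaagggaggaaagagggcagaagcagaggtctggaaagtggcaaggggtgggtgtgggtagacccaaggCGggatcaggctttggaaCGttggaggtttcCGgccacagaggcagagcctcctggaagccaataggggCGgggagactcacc
Clec11a intron 3, chr7:44305001-44305200, minus strand: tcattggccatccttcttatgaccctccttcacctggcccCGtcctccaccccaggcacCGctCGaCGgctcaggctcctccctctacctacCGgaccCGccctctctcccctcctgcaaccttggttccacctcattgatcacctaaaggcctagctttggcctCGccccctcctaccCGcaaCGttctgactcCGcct
Itga11 at -22.9 kb, chr9:62654801-62655000, plus strand: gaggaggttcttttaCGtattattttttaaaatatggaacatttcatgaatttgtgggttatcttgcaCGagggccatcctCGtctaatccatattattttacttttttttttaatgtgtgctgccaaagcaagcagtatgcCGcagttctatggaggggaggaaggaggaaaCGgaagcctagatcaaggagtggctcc
Itga11 intron 1, chr9:62689801-62690000, plus strand: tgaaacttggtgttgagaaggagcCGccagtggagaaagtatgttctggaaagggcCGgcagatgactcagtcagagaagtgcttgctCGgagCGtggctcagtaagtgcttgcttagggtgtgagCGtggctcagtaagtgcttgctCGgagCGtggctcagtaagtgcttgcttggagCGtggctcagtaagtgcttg
Itgb1 upstream, chr8:128685404-128685653, plus strand: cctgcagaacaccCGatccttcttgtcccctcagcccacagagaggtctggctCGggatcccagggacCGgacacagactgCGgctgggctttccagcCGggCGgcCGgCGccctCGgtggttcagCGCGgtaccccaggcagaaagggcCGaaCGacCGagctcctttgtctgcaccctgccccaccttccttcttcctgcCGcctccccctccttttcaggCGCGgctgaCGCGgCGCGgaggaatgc
Itgb1 exon 9 and its borders, chr8:128717601-128717800, plus strand: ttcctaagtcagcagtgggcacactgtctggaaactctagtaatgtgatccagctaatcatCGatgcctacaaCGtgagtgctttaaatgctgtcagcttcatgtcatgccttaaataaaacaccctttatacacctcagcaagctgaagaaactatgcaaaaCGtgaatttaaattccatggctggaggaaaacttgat

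The 4 kb windows around the 3 TSSs were compared first, by a 2-sided Fisher exact test of the pooled calls with Benjamini-Hochberg adjustment over 21931 windows. CG methylation was higher in TCKO at Clec11a and Itgb1, and the Itga11 window did not pass. Of all windows 37.8% were called higher in TCKO, and 3 genes are too few to be set against that share. The median difference over all windows was 4.71 points.

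At Clec11a the window held 667 WT calls, of which 63 were methylated (9.45%, Wilson 95% interval 7.45 to 11.9), and 459 TCKO calls, of which 115 were methylated (25.1%, 21.3 to 29.2). The difference was 15.6 points (Newcombe 95% interval 11.1 to 20.2, adjusted p = 1.28e-10, Fisher exact test), and 9.06% of all windows differed by as much or more. It was concentrated near the TSS: within 1 kb on either side the level went from 16% to 60.2%, a difference of 44.2 points that 0.21% of windows reached. From 1 kb upstream to 100 bp downstream it went from 3.31% to 54.0%. From 0 to 400 bp 3 of the 6 CG cytosines had calls in both libraries. The 4 kb difference was larger on the minus strand, at 31.0 points (19.8% and 50.8%). On the plus strand alone the 4 kb difference was 4.37 points and lost the call (adjusted p = 0.059, Fisher exact test).

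Single CpGs showed where the Clec11a difference lay. Of its 82 CpGs, 32 had at least 5 calls in each library, and 3 of these were called higher in TCKO and 0 lower (Fisher exact test, Benjamini-Hochberg adjustment over 13646443 CpGs). Over the genome 0.847% of tested CpGs were called higher. The CpG at -108 bp, in the upstream sequence printed above, was methylated in 0 of 13 WT calls, which allows a level of up to 23.1%, and in 13 of 15 TCKO calls (adjusted p = 0.0014, Fisher exact test). At 264 bp, in coding exon 1, the counts were 8 of 26 and 17 of 18 (adjusted p = 0.0077, Fisher exact test). At 395 bp, in intron 1, they were 16 of 34 and 27 of 27 (adjusted p = 0.0011, Fisher exact test).

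The other 3 CpGs of the printed Clec11a upstream sequence were also higher in TCKO but did not pass the adjustment. Their counts were 2 of 13 and 11 of 15 at -139 bp, 0 of 13 and 6 of 15 at -121 bp, and 0 of 10 and 7 of 12 at -70 bp. Together with -108 bp these 4 CpGs were at 4.08% in WT and 64.9% in TCKO, a difference of 60.8 points (44.7 to 72.3). Calls of neighbouring CpGs can come from the same reads, so pooled counts hold fewer independent molecules than calls.

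Farther into the gene the levels met again. The limits of the stretches given for Clec11a and Itga11 were drawn after the levels were seen. The 22 tested CpGs from 1459 bp to 1898 bp, all in intron 3 and including those of the printed intron 3 sequence with enough calls, were at 0% in TCKO, and 21 of them were at 0% in WT. Over the 41 CpGs from 1 kb to 2 kb downstream, 1 of 392 WT calls and 0 of 274 TCKO calls was methylated, and the latter allows up to 1.09%. Between 500 bp and 1400 bp the 23 CpGs had 51 WT and 43 TCKO calls in all and levels of 13.7% and 14%. Upstream, from -2000 bp to -1600 bp, 17 of 17 WT calls were methylated and TCKO had 0 calls. The Clec11a window thus held a methylated upstream edge and a stretch around the TSS that was higher in TCKO. Its intron 3 stretch was unmethylated in both libraries. Around the TSS the levels were 4.08% and 64.9% over the 4 CpGs of the printed upstream sequence. From 0 to 400 bp they were 32.9% and 88.7%.

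**Figure D1:**
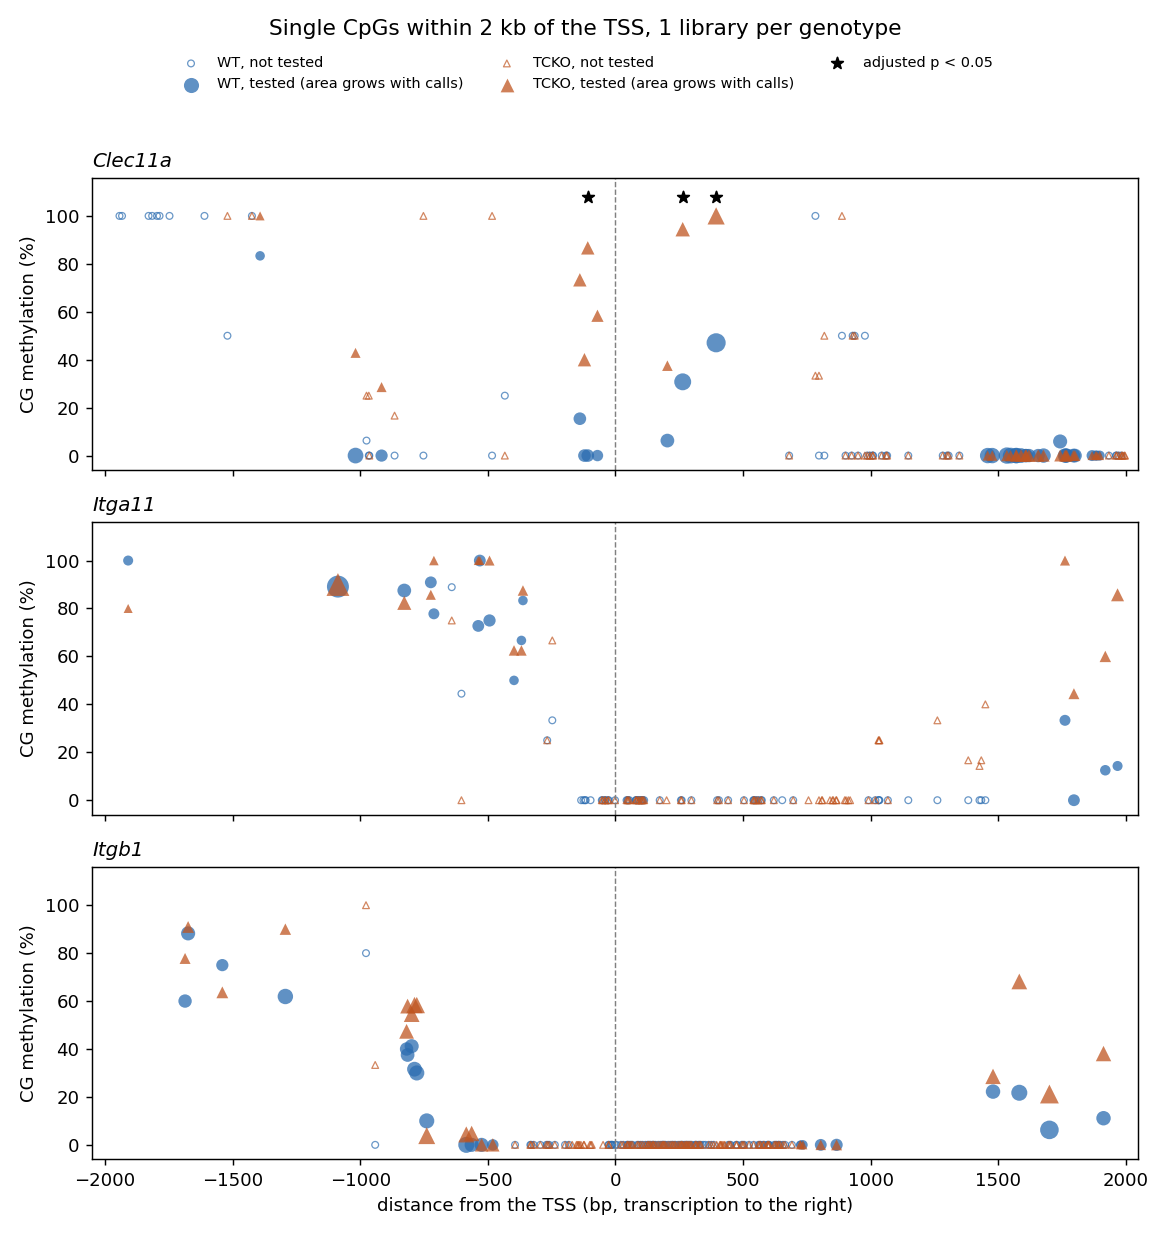
CG methylation (%) of every CpG with a call within 2 kb of the TSS of Clec11a, Itga11 and Itgb1, against distance in bp, for the WT library (circles) and the TCKO library (triangles). Filled points had at least 5 calls in both libraries and their area grows with the calls. Stars mark the 3 CpGs with adjusted p below 0.05, all at Clec11a. TCKO lay above WT around the Clec11a TSS, and the open points around the Itga11 and Itgb1 TSSs lay near 0% in both libraries.

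At Itga11 the 4 kb window had 139 methylated of 364 WT calls (38.2%) and 153 of 356 TCKO calls (43%), a difference of 4.79 points (-2.37 to 11.9, adjusted p = 0.316, Fisher exact test). The direction of this pooled value turned with the setting: it was -3.70 points within 1 kb on either side, -11.8 on the minus strand and 17.8 on the plus strand. Of 90 CpGs only 15 were tested, 0 were called and 3 had an unadjusted p below 0.05. The 73 CpGs between -300 bp and 1700 bp had 170 WT and 183 TCKO calls in all. Of those, 3 and 12 were methylated (1.76% and 6.56%). These totals came partly from different CpGs: from -134 bp to -97 bp TCKO had 0 calls, and from 757 bp to 920 bp WT had 0. In the whole window 68 of the 90 CpGs had calls in both libraries, so its pooled levels also cover partly unlike CpGs. The CpG nearest the TSS, at -1 bp, had 0 of 3 WT calls and 0 of 1 TCKO call methylated, too few for a comparison.

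The Itga11 window split into 3 stretches. From -2000 bp to -300 bp the CpGs were methylated in both libraries, at 82.4% and 84.2%. The core around the TSS was low in both. In intron 1, from 1700 bp to 2000 bp, 4 CpGs had 5 of 35 calls methylated in WT (14.3%) and 29 of 40 in TCKO (72.5%), a difference of 58.2 points (36.7 to 72.1), and each of the 4 was higher in TCKO. That stretch lies mostly in the bin centred at 1875 bp, which is described with the bins.

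At Itgb1 the window had 96 methylated of 560 WT calls (17.1%) and 134 of 578 TCKO calls (23.2%), a difference of 6.04 points (1.37 to 10.7, adjusted p = 0.0324, Fisher exact test). The call was lost within 1 kb on either side (5.61 points, adjusted p = 0.0564, Fisher exact test) and on the minus strand (1.92 points, adjusted p = 0.746, Fisher exact test). Of 150 CpGs 22 were tested and 0 were called, with 1 at an unadjusted p below 0.05. The first exon and its surroundings are a dense CpG stretch, of which the printed upstream sequence holds 21. The 125 CpGs that lie between the tested CpGs at -480 bp and 726 bp had 0 methylated of 185 WT calls and 0 of 201 TCKO calls, which allow up to 1.62% and 1.49%. The CpG nearest the TSS, also at -1 bp, had 1 WT call, unmethylated, and 0 TCKO calls.

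Stretches on either side of that part of Itgb1 were higher in TCKO, within limits drawn after the levels were seen. From -1000 bp to -760 bp the levels were 35.7% and 55.4%, a difference of 19.6 points (6.14 to 32.1). From 1000 bp to 2000 bp, in intron 1, they were 14.3% and 37.1%, a difference of 22.8 points (10.4 to 34.3). All 9 tested CpGs of these stretches were higher in TCKO, and 0 of them passed the adjustment. The next tested CpG inward, at -739 bp, went the other way, with 2 of 20 and 1 of 26 calls methylated. A second protein-coding transcript starts farther downstream, and the mean difference over both TSS windows of Itgb1 was 7.78 points.

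Depth differed along the genes and sets how firmly these levels are known. Per CG cytosine of the TSS window, Clec11a had 4.07 WT and 2.80 TCKO calls, Itga11 2.02 and 1.98, and Itgb1 1.87 and 1.93. The introns of Itgb1 beyond the window had 10.1 and 8.62. The part of depth in the window values was not tested.

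Over the gene and both flanks the levels were 60.4% and 64.4% at Clec11a, 74.3% and 84.1% at Itga11, and 73.7% and 83.1% at Itgb1. The differences were 3.95 points (2.13 to 5.76) at Clec11a, 9.75 (8.78 to 10.7) at Itga11 and 9.38 (8.11 to 10.7) at Itgb1. Introns beyond the TSS window were at 74.7% in WT and 84.6% in TCKO for Itga11, and at 75.7% and 89.2% for Itgb1. The Clec11a exons beyond its window, with 246 and 197 calls, pooled to a lower level in TCKO, at 67.9% and 53.3%. Depth there was 2.05 and 1.64 calls per CG cytosine, and the pooled calls of the 2 libraries can fall on different cytosines. In bins of these exons with a mean of at least 1 call per cytosine in each library, differences ran from -4.01 to 7.26 points. The Clec11a upstream flank was at 67.6% and 67.5%, so the whole Clec11a locus differed by less than its TSS region did.

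A testable 200 bp bin had at least 4 CG cytosines with calls. Its mean was at least 4 calls per cytosine in each library. It was called a hyper-CG-DMR at an adjusted p below 0.05 over 2487317 testable bins and a difference above 40 points. A CpG counts as 2 cytosines here, so 2 CpGs could suffice. The study took its DMRs, with at least 4 CG sites, from the R package DMRcaller, which was not run here. The 3 loci held 246 testable bins, of which 11 were called (4.47%) and 0 were called in the other direction. Over the genome 2.91% of testable bins were called. By locus, Clec11a had 1 of 52, Itga11 6 of 117 and Itgb1 4 of 77. Most of the 11 hold fewer than 4 CpGs, among them the Clec11a bin and the Itgb1 bin at 32.0 kb, with 3 each. Only 9 of the testable bins lay in the TSS windows, and 9 of the 11 called bins lay outside them.

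**Figure D2:**
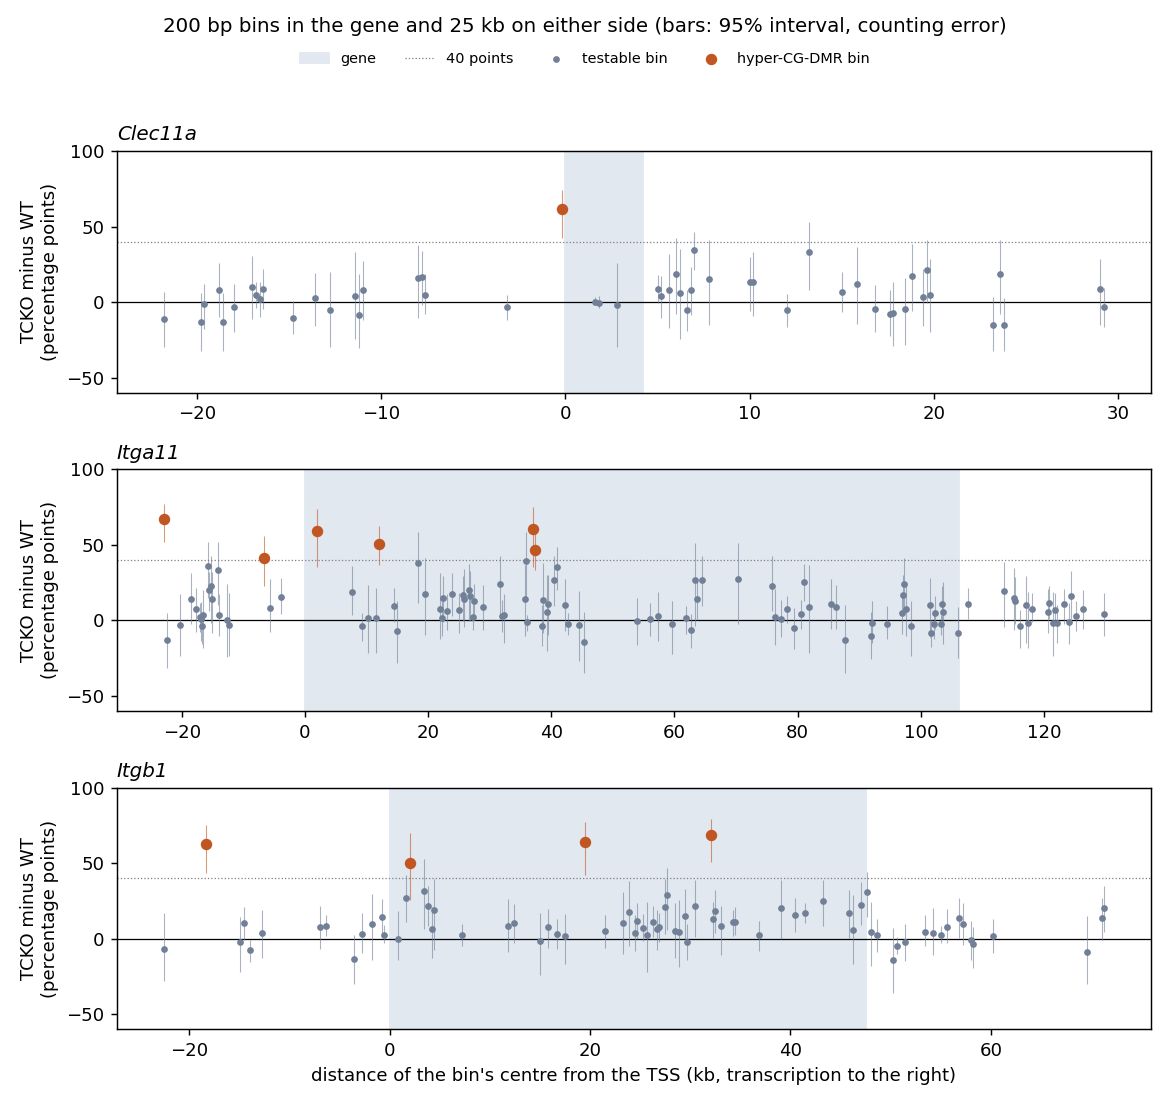
Difference in CG methylation, TCKO minus WT in percentage points, of the 246 testable 200 bp bins against the distance of the bin's centre from the TSS in kb. Grey shading is the gene, bars are Newcombe 95% intervals, the dotted line is 40 points and large points are the 11 hyper-CG-DMR bins. Clec11a shows 1 large point, just upstream of the TSS, while those of Itga11 and Itgb1 are spread over the upstream flank, the introns and, for Itgb1, exon 9.

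The Clec11a bin is centred at -199 bp (chr7:44307001-44307200) and lies within the printed upstream sequence. It went from 2 of 39 calls (5.13%) to 30 of 45 (66.7%), a difference of 61.5 points (42.8 to 74.1, adjusted p = 3.90e-07, Fisher exact test). The adjacent 1 kb was also higher in TCKO, at 29.6% and 72.5% on the gene side and at 2.13% and 35.1% on the upstream side. Of the 5 Clec11a bins below 30% in WT, this was the 1 called, and the other 4 were at most 17.6% in TCKO. They include the 2 bins of intron 3 and the bin centred at -3199 bp (5 of 72 and 3 of 81 calls), near the Shank1 TSS.

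Among the testable bins of Itga11 the largest difference was upstream, at -22.9 kb, in the sequence printed above. Its counts were 17 of 63 (27.0%) and 62 of 66 (93.9%), a difference of 67 points (52.2 to 77.0, adjusted p = 3.93e-13, Fisher exact test). All 5 of its CpGs were higher in TCKO, by 50 to 77.8 points. Here and in the bins below, the CpGs of a called bin hold the calls that gave the bin its call. Their direction and their own tests are therefore no separate evidence. The 1 kb before the bin at -22.9 kb went from 1 of 40 calls to 11 of 20, while the 1 kb after it was at 80.8% and 78.9%. A second upstream bin, at -6.73 kb, went from 53.1% to 94.4%, and of its 2 CpGs the one at -6636 bp went from 2 of 22 to 15 of 17 (adjusted p = 0.00073, Fisher exact test).

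Within Itga11 the called bins were all intronic. In intron 1, the bin at 1875 bp went from 2 of 26 (7.69%) to 22 of 33 (66.7%), and the printed bin at 12.1 kb from 30 of 64 (46.9%) to 73 of 75 (97.3%, adjusted p = 7.22e-10, Fisher exact test). The latter holds 4 copies of the run agcgtggctcagtaagtg, without regard to the capitals. Its 4 CpGs nearest the TSS were at 0% to 44.4% in WT and 88.9% to 100% in TCKO, and its other 4 were at 60% to 100% in WT. In intron 2 the adjacent bins at 37.1 kb and 37.3 kb went from 24.2% to 84.6% and from 46.1% to 93.0%, and all 7 CpGs of the pair were higher in TCKO. The 1 kb before the pair was at 93.9% and 93.5%.

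Among the testable bins of Itgb1 the largest difference was at 32.0 kb, over coding exon 9 and its borders, in the printed sequence. The counts were 9 of 57 (15.8%) and 38 of 45 (84.4%), a difference of 68.7 points (51.1 to 79.3, adjusted p = 3.99e-10, Fisher exact test). Its CpG at 32020 bp went from 0 of 19 to 14 of 16 (adjusted p = 7.30e-05, Fisher exact test). The adjacent 1 kb on either side was at 71.9% and 83.1% in WT, so the bin was a local low in WT that was close to its surroundings in TCKO (83.1% and 96.4%).

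The other 3 Itgb1 bins lay upstream and in intron 1. At -18.4 kb the counts were 6 of 38 and 41 of 52 (15.8% and 78.8%). At 2047 bp they were 0 of 23, which allows up to 13%, and 10 of 20 (50%). At 19.4 kb they were 10 of 48 and 23 of 27 (20.8% and 85.2%), and 1 of the bin's 2 CpGs, at 19356 bp, went from 0 of 30 to 13 of 16 (adjusted p = 1.33e-05, Fisher exact test).

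Across the 11 bins WT levels ran from 0% to 53.1% with a median of 20.8%, and TCKO levels from 50% to 97.3% with a median of 84.6%. Of the bins below 30% in WT, 1 of 5 was called at Clec11a, 3 of 6 at Itga11 and 4 of 8 at Itgb1. Over the genome 36.0% of the 116623 testable bins below 30% in WT were called, and their median TCKO level was 45.5%. The called bins and the low WT level are tied by construction, since a difference above 40 points needs a low start.

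**Figure D3:**
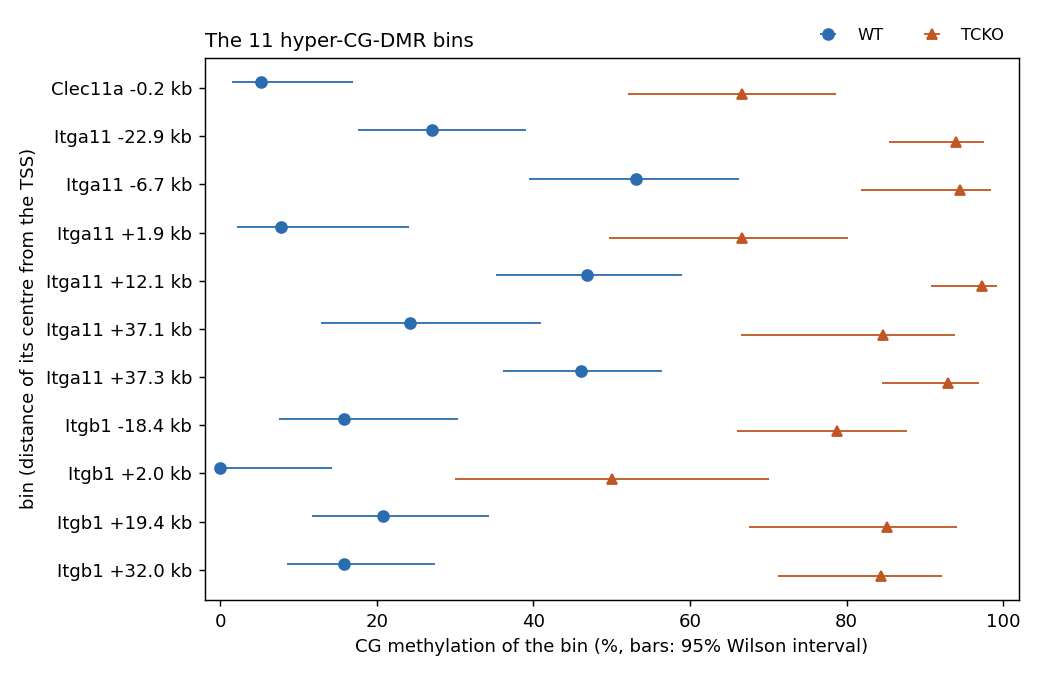
CG methylation (%) in WT (circles) and TCKO (triangles) of the 11 hyper-CG-DMR bins, named by gene and by the distance of the bin's centre from the TSS in kb, with Wilson 95% intervals. In each bin the TCKO level lay above the WT level, as the call requires. The lowest TCKO level is 50%, in Itgb1 at 2.0 kb.

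Motif letters were counted in the 11 called bins on both strands. AP-1 (TGACTCA or TGAGTCA) was in 2 of 11, both in Itga11 intron 1 (1875 bp and 12.1 kb), and 3.03% of testable bins hold it. The Runt motif AACCACA was in 1, Itga11 at 37.1 kb, against 5.04% of testable bins. TEAD (CATTCCA) was in 1, Itga11 at 37.3 kb, against 3.21%, and the E-box CAGCTG in 0, against 6.32%. None of the 3 RefSeq promoters, from 250 bp upstream to 50 bp downstream, held any of them, against 4.66%, 4.65%, 3.68% and 15.7% of all promoters for Runt, AP-1, TEAD and the E-box.

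The α chains that pair with the β chain of Itgb1, the proteins that link it to the cytoskeleton, and the effectors of β-catenin signalling were taken as lists. Of their 33 TSS windows, 17 were higher in TCKO (51.5%) and 0 lower by the Fisher exact test, against 37.8% of all windows. Within 1 kb of the TSS 8 of the 33 were called higher, against 23.0% of all such windows. Among 11 other α partners 5 were called, with a median of 3.67 points. Itga4, an α chain of a receptor for fibronectin and VCAM1, went from 40.6% to 72.1%. Itga10, a collagen receptor chain like Itga11, went from 56.1% to 79.7%. Itga5, of the main fibronectin receptor, went from 6.53% to 16%. The other collagen receptor chains, Itga1 and Itga2, differed by 1.5 and 3.67 points and were not called. Itga3 and Itga8 went the other way, at -6.75 and -2.28 points, and were not called. Called or not, 30 of the 33 windows had a higher pooled level in TCKO, as had 76.1% of all windows.

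Among 14 adaptors and kinases 9 were called, with a median of 7.39 points. Ilk, the integrin-linked kinase, went from 14.4% to 27.7%, and Lims1, which encodes its partner PINCH1, from 9.79% to 25.4%. Src, a kinase of focal adhesions, was already at 61.7% in WT and reached 75.1%. Parva and Parvb, the parvins of the same complex, differed by 8.86 and 10.2 points, Tln1 (talin, which activates integrins) by 7.88 and Ptk2 (focal adhesion kinase) by 6.01, all called. Fermt2, the kindlin of mesenchymal cells, and Vcl differed by 3.90 and 0.82 points and were not called. Fermt1 went the other way, at -3.81 points, and was not called either. Of the 8 Wnt effectors 3 were called (37.5%), against 37.8% of all windows. They were Ctnnb1, which encodes β-catenin (72.9% and 85.7%), Tcf7 (35.0% and 44.1%) and Gsk3b (4.59% and 9.36%). Gsk3b encodes a kinase that marks β-catenin for destruction. Each window lies around the outermost start of the gene model and can miss starts farther in, so these levels need not be those of the main promoter. Axin2, a target of the pathway, differed by 5.09 points and Lef1 by 0.37, and neither was called.

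**Figure D4:**
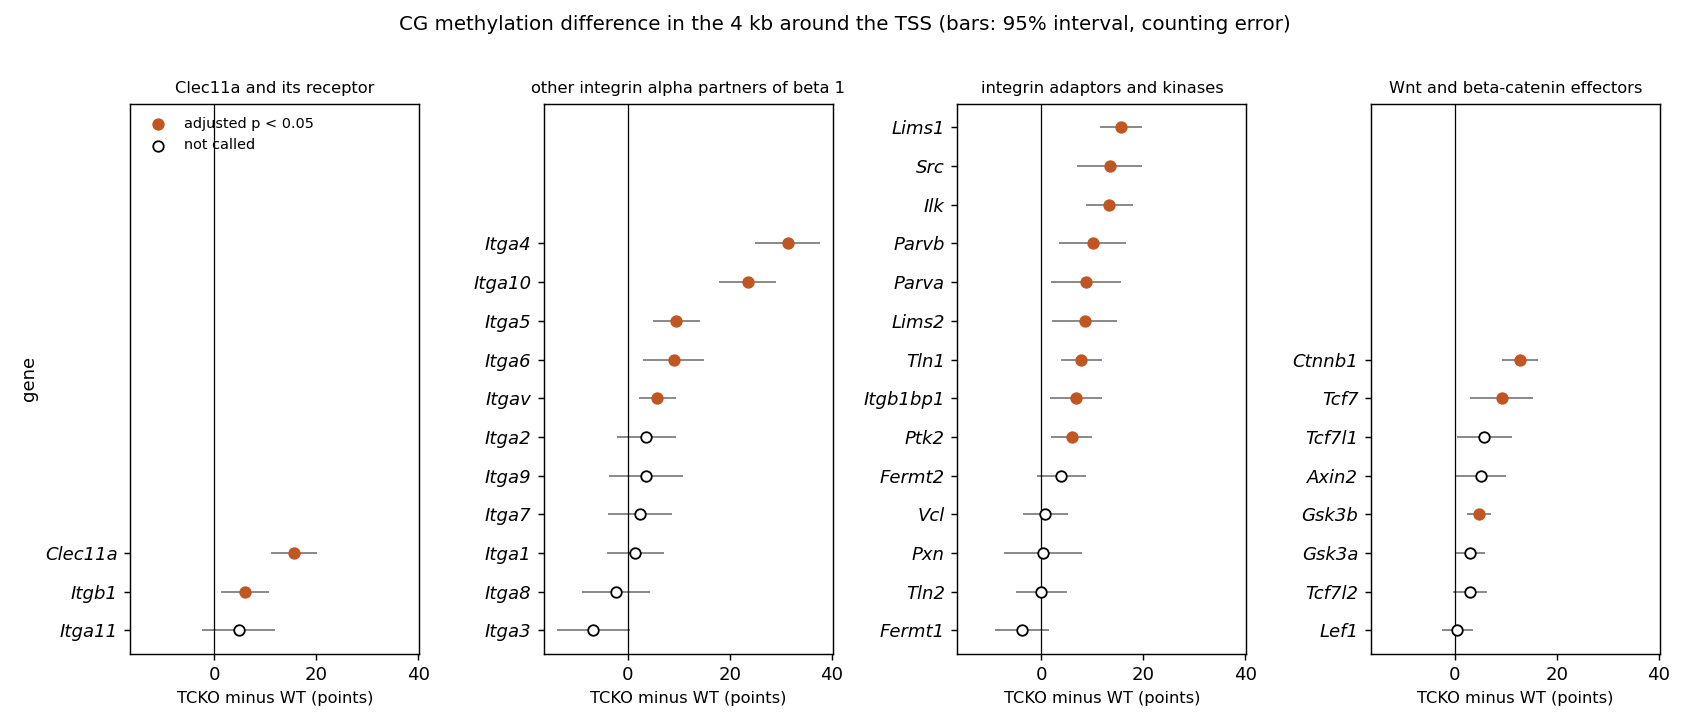
TCKO minus WT CG methylation, in percentage points, of the 4 kb TSS windows of Clec11a, Itga11 and Itgb1 and of the 33 listed genes, with Newcombe 95% intervals. Filled points have adjusted p below 0.05. Clec11a differed by 15.6 points, and among the listed genes Itga4 and Itga10 by more, at 31.5 and 23.6 points.

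The genes with the most similar profile were sought over 400 bp windows of the TSS region with at least 20 calls in each library. The measure is the root mean square difference of levels over both libraries. No member had enough calls in all 10 windows, so the windows in which the member itself had them were used, a choice made after the data were seen. For Clec11a (6 windows, 3514 other genes) the closest were Prkar1a at 21.3 points, Mllt10 at 23.9 and Grb10 at 24.6, against a median of 57.5. For Itga11 (6 windows, 3903 other genes) Tbpl1 was at 6.95, Dnm3 at 9.10 and Spata6 at 9.17, against 39.9. For Itgb1 (9 windows, 1576 other genes) Cry2 was at 9.86, Unc5b at 11.5 and Svep1 at 11.7, against 32.6. Each over its own windows, the gene nearest to Clec11a lay farther off than those nearest to Itga11 and Itgb1.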

How the data were processed

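WGBS of WT and TCKO osteoblasts, cultured for 3 days, was used, with 1 library per genotype. Per the labels and the study's methods, the authors aligned reads to GRCm38 with BSMAP 2.74 and deposited, for each CG cytosine and strand, the counts of methylated and of all calls. These counts are not normalized. Duplicate handling is not given in the sources used here, and other assays were not analysed here.

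Levels are methylated over all calls. Positions come from GENCODE M21, and sequences from the GRCm38.p6 reference and RefSeq promoters. The TSS of a gene is the outermost start of its GENCODE model. TSS windows, 200 bp bins and single CpGs (strands pooled, at least 5 calls in each library) were tested over the genome with Python 3.11.15 and numba 0.67.0, by Fisher's exact test (2-sided), with p-values adjusted after Benjamini and Hochberg and a threshold of 0.05. The code was tested on simulated data. Intervals are at 95%, and a count of 0 was given a limit of 3 calls. A median of 4 calls per cytosine leaves single levels coarse. The genes named by rule are the 3 members, the 2 called genes of each list with the largest difference, and the 3 closest profiles per member. Other listed genes were named after their values were seen. The members and lists were chosen with earlier results of these data known. Alternatives varied the coverage minimum, window, strand, site weighting, bin grid and thresholds.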

Additional observations from a re-analysis of the deposited data

How the results depend on the processing

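Of 65 alternatives, 38 kept the call and direction or stayed close to the value, and 3 reversed. At Clec11a the TSS window kept its call except on the plus strand (4.37 points). The Itga11 window reversed at 10 calls per cytosine (-0.58 points), within 1 kb (-3.70) and on the minus strand (-11.8), and passed the test at 4 calls per cytosine (13.7) and on the plus strand (17.8). The Itgb1 window lost its call at 10 calls per cytosine (11), within 1 kb (5.61), from 1 kb upstream to 100 bp downstream (8.21) and on the minus strand (1.92). The cause was not tested. Locus differences moved to 7.02 points at Clec11a with 4 calls per cytosine, and at Itgb1 to 10.7 by site means, 11 on the plus strand and 7.70 on the minus strand.

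Hyper-CG-DMR bins at Clec11a, Itga11 and Itgb1 numbered 0, 1 and 0 at a mean of 10 calls per cytosine, where fewer bins could be tested, and 2, 10 and 8 above 20 points. Itga11 had 17 at a mean of 1 call and 2 above 60 points, and Clec11a had 2 on a grid shifted by 100 bp. By unadjusted p, 7, 3 and 1 single CpGs were higher. The genome shares of 2.91% of bins and 0.847% of CpGs hold for the main setting only. Shares at these other settings are not given here, so these bin and CpG counts are not set against the genome. Of the 33 listed windows 8 were called within 1 kb, where 23.0% of all windows were. No paired analysis was possible because each genotype has 1 library. The CpG-dense cores of Itga11 and Itgb1, and Clec11a from 500 bp to 1400 bp, had too few calls for any single CpG to be tested.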
